A study of Capra hircus with 3 samples.

Results

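Integrins are receptors made of 1 alpha and 1 beta chain that tie a cell to its surroundings, and laminins are the cross-shaped proteins of 1 alpha, 1 beta and 1 gamma chain that many of them hold. Members were taken by their product text: every entry whose description begins with integrin or laminin followed by alpha, beta or gamma. The rule found 45 of the 24689 genes in the deposited table. Of these, 38 encode chains, namely 26 integrin chains (18 alpha, 8 beta) and 12 laminin chains (5 alpha, 4 beta, 3 gamma). The other 7 are binding proteins or genes that only share a repeat or a name, and they are described apart from the chains. In 36 of the 38 chains the reference symbol names the same chain as the product text, while ITGAD and LAMB2 were named by product text alone.

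RNA was sequenced from the longissimus dorsi, the long back muscle, of goats (Capra hircus) of 3 ages: kid (2 months), youth (9 months) and adult (24 months). No treatment or genetic change is named for any group. Each age had 1 library, and the animals' sex and breed, and whether RNA was pooled, were not stated in the labels used here. No difference below has a replicate check, no test was possible, and each value describes a library and not an age. Levels are in FPKM, which are fragments scaled to the gene's length and to the mapped total, so that genes of unequal length can be compared. The mapped totals, which follow from the steps between values, were 15829474, 14920689 and 18399385, and 1 read in 1 kb was worth 0.0632, 0.0670 and 0.0543 FPKM in kid, youth and adult. Ratios of FPKM between libraries carry an exact 95% interval of the reads (Clopper-Pearson), which covers counting error only and not variation between animals.

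In skeletal muscle the fibre is wrapped in a basement membrane whose main laminin combines the alpha 2 chain with a beta and the gamma 1 chain. The fibre holds it with dystroglycan and with the receptor of integrin alpha 7 and beta 1, which sits at costameres and at the ends of the fibre, where force passes to tendon. Loss of LAMA2 or of ITGA7 is known to cause muscular dystrophy or myopathy. Blood cells carry another set of integrins, built on beta 2, that let them stick to vessel walls and take up particles. The tissue also holds vessels, nerves, fibroblasts and blood cells, and all of them contribute chains to a whole-muscle library.

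The libraries read as striated muscle: the 5 fibre markers (ACTA1, CKM, MYLPF, TNNT3, MB) summed to 48654, 57634 and 66969 FPKM in kid, youth and adult, respectively. The protocol label speaks of mammary tissue while the tissue label names the back muscle, and 3 genes of milk proteins (CSN2, CSN3, LALBA) had 0 in every library. Other cell types were not constant between the libraries. The 19 leukocyte markers with an entry summed to 121, 129 and 69.4 FPKM with none at 0. The 6 Schwann cell markers summed to 215, 126 and 83.7 FPKM, and the 3 adipocyte markers to 77.7, 27.3 and 41.4. The 7 endothelial markers were closer together, at 197, 176 and 172 FPKM. The 8 smooth muscle and pericyte markers reached 501, 383 and 516 FPKM, and the 8 fibroblast and tendon markers 830, 1012 and 711. Not all of the latter followed their sum: TNMD and COMP were highest in adult. The 3 satellite cell markers summed to 3.40, 3.34 and 4.72 FPKM.

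The chains of the muscle receptor were the most abundant integrin transcripts in each library. ITGB1 (gene 102178060), the beta chain shared by most integrins that bind matrix, stood at 92.3 FPKM in kid, with 93.4 in youth and 78.1 in adult, from 5327, 5085 and 5242 reads. ITGA7 (gene 102169839), the alpha chain of the fibre's laminin receptor, stood at 61.5, 47.3 and 62.6 FPKM, from 3835, 2778 and 4533 reads. The library with the lowest value was adult for ITGB1 and youth for ITGA7. ITGB1 was within counting error between kid and youth (ratio 1.01, interval 0.974 to 1.05) and 1.20-fold lower in adult than youth (1.15 to 1.24). ITGA7 was 1.30-fold lower in youth than in kid (1.24 to 1.37) and 1.32-fold higher in adult than youth (1.26 to 1.39), which left adult and kid within counting error (1.02, 0.974 to 1.06).

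The ratio of these chains was not the same in the 3 libraries. ITGB1 stood 1.50-fold above ITGA7 in kid (1.44 to 1.56), 1.98-fold in youth (1.89 to 2.07) and 1.25-fold in adult (1.20 to 1.30). ITGB1 also pairs with many other alpha chains, in fibres and in other cells. The splice forms of ITGB1 and ITGA7, one of which is the muscle form of beta 1, share 1 gene value here and were not analysed separately.

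The other laminin-binding alpha chains were lower. ITGA6, a laminin receptor chain of endothelium, epithelium and Schwann cells, was at 16.0, 14.9 and 13.6 FPKM, 1.18-fold lower in adult than in kid (1.09 to 1.27). ITGA3, best known from epithelium and kidney, was at 1.56, 1.23 and 1.59 FPKM, and all 3 of its intervals held 1. ITGA7 held 77.8%, 74.6% and 80.5% of the summed FPKM of these 3 chains. Its lead over ITGA6 was 3.84-fold in kid (3.61 to 4.10), 3.18-fold in youth (2.96 to 3.40) and 4.60-fold in adult (4.33 to 4.90).

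Among the alpha chains that bind collagen, ITGA1 (gene 102172761), found on vessel and connective tissue cells, led, at 22.0 FPKM in kid, with 16.5 in youth and 15.7 in adult. The kid library was the high one: ITGA1 was 1.33-fold lower in youth than in kid (1.24 to 1.43) and 1.40-fold lower in adult than in kid (1.31 to 1.50). ITGA11, a receptor for fibrillar collagen on fibroblasts, was at 2.87, 2.62 and 2.41 FPKM with 1 inside all 3 intervals. ITGA2 and ITGA10 were under 1 FPKM in every library. ITGA2, the other widely expressed collagen receptor chain, went from 61 reads in kid to 34 in youth and 32 in adult, 2.22-fold lower in adult than in kid by FPKM (1.42 to 3.51). ITGA10, best known from cartilage, had 22, 22 and 52 reads and was 2.03-fold higher in adult than in kid (1.21 to 3.52).

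The alpha chains that read the RGD motif of fibronectin and related proteins were lowest in adult for 3 of 4. ITGA5 (gene 102176587), the fibronectin receptor chain, stood at 15.7 FPKM in kid, with 16.0 in youth and 9.56 in adult. Kid and youth did not differ beyond counting error (1.02, 0.932 to 1.11), and adult was 1.67-fold lower than youth (1.52 to 1.84), with a difference of -0.69 on the log2(FPKM + 1) scale that no other chain whose mean was at least 1 FPKM exceeded in that comparison. ITGAV, the shared partner of beta 3, beta 5, beta 6 and beta 8, was at 10.7, 10.4 and 8.17 FPKM, 1.27-fold lower in adult than youth (1.13 to 1.43). ITGA2B, the platelet fibrinogen receptor chain, was at 2.73, 2.69 and 1.84 FPKM, 1.47-fold lower in adult than youth (1.18 to 1.83). Of 6 platelet markers only 3 were found by name. GP1BA had 3, 2 and 4 reads, and PPBP and TREML1 were at 0 in every library. The cell source of the ITGA2B reads was not tested. ITGA8, a chain of smooth muscle and mesenchymal cells, was at 1.20, 0.898 and 1.31 FPKM and was 1.46-fold higher in adult than youth (1.04 to 2.07).

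The related chains alpha 9 and alpha 4 had their highest value in youth. ITGA9, which binds tenascin and osteopontin, was at 2.22, 3.25 and 2.06 FPKM, 1.46-fold higher in youth than in kid (1.26 to 1.71) and 1.58-fold lower in adult than youth (1.36 to 1.83). ITGA4, the chain that lets lymphocytes and monocytes bind VCAM1, was at 0.936, 1.11 and 0.652 FPKM, 1.71-fold lower in adult than youth (1.15 to 2.54). Its kid and youth values were within counting error of each other (1.19, 0.822 to 1.72).

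**Figure D1:**
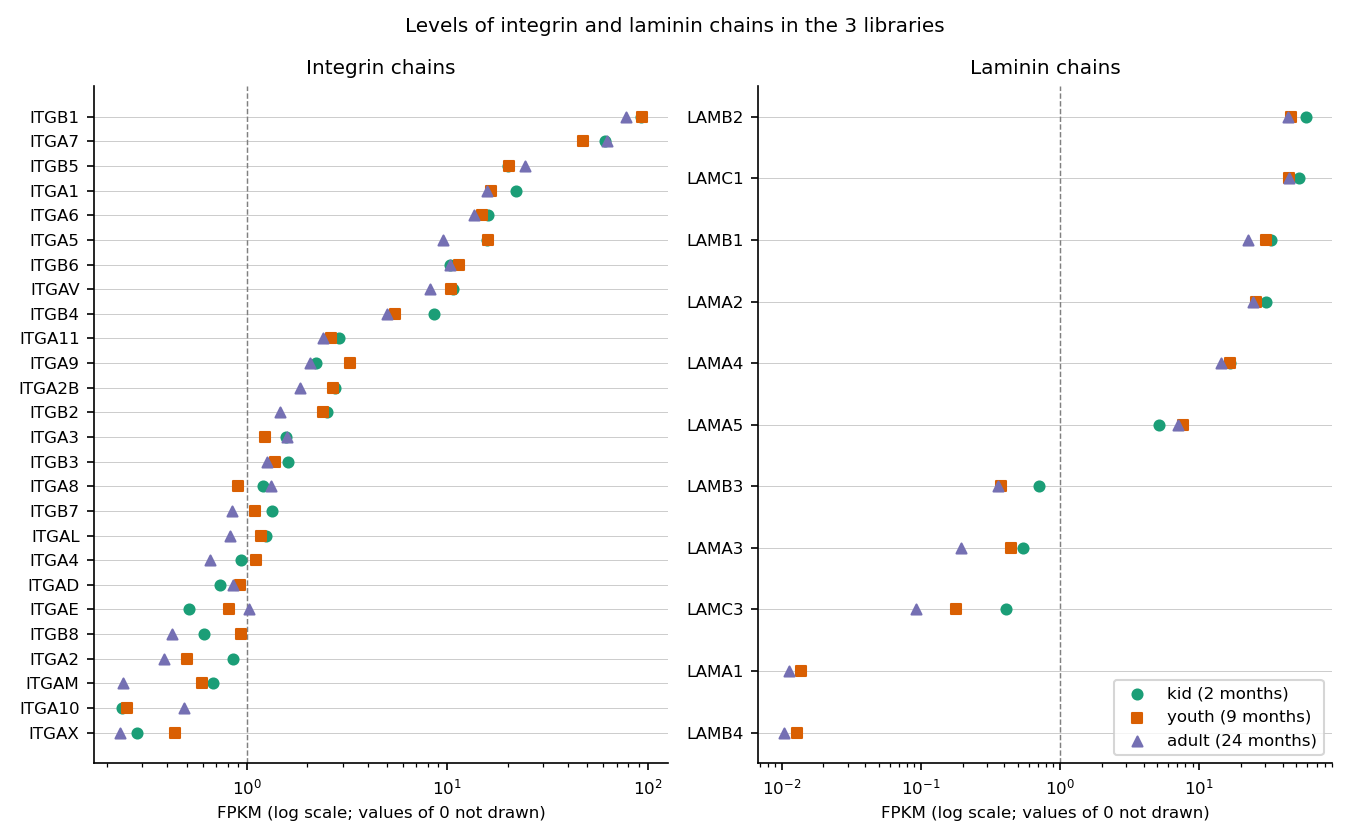
FPKM on a log axis for the 26 integrin chains (left) and 11 laminin chains (right), ordered by mean level, with 1 symbol per library (kid circle, youth square, adult triangle) and a dashed line at 1 FPKM. ITGB1 and ITGA7 stand apart at the top of the integrins, and 6 laminin chains stand above 1 FPKM with the others drawn below it.

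The beta chains that pair with alpha V did not share 1 pattern. ITGB5 (gene 102173608), a vitronectin receptor chain, followed ITGB1 and ITGA7 in youth and adult, at 20.0, 20.2 and 24.4 FPKM in kid, youth and adult. Unlike most chains it was highest in adult, 1.20-fold above youth (1.10 to 1.31) and 1.22-fold above kid (1.12 to 1.33). ITGB6, known mainly from epithelium as an activator of latent TGF-beta, was at 10.3, 11.5 and 10.3 FPKM, 1.12-fold higher in youth than in kid (1.01 to 1.24). ITGB3, the beta chain of platelets and osteoclasts, was at 1.60, 1.38 and 1.26 FPKM with 1 inside all 3 intervals. ITGB8 was under 1 FPKM throughout, at 0.608, 0.932 and 0.422. ITGB5 stood above ITGB3 12.5-fold in kid (9.94 to 15.9), 14.6-fold in youth (11.4 to 19.1) and 19.4-fold in adult (15.3 to 24.8).

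ITGB4 (gene 102191175), the partner of alpha 6 in hemidesmosomes and in myelinating Schwann cells, was highest in kid. It stood at 8.58 FPKM in kid, with 5.48 in youth and 5.01 in adult, from 737, 444 and 500 reads. It was 1.56-fold lower in youth than in kid (1.39 to 1.76) and 1.71-fold lower in adult than in kid (1.53 to 1.92). These were the lowest differences of any chain whose mean was at least 1 FPKM in both comparisons, at -0.56 and -0.67 on the log2(FPKM + 1) scale. All 5 Schwann cell markers whose mean was at least 1 FPKM were also lower in both comparisons by the interval. Of all genes, 26.9% and 34.6% were lower. In adult against youth the interval of ITGB4 held 1 (0.913, 0.802 to 1.04). There 3 of the 5 markers were lower and 1 higher (of all genes 27.0% and 22.3%), and the summed markers were 1.50-fold lower by FPKM. Summed, the 6 Schwann cell markers were 1.71-fold lower in youth and 2.57-fold lower in adult than in kid by FPKM, and their part in the level of ITGB4 was not tested. In bulk muscle, fewer cells of a type and less RNA per cell cannot be told apart.

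By share, ITGA7 held 43.3% of the summed FPKM of the 18 alpha chains in kid, 38.9% in youth and 50.6% in adult. ITGA5 held 11.1%, 13.2% and 7.74% and ITGA1 15.5%, 13.6% and 12.7%. Among the 8 beta chains ITGB1 held 67.3%, 68.5% and 64.1%, and ITGB5 14.6%, 14.8% and 20.0%. The alpha chains together summed to 142, 122 and 124 FPKM and the beta chains to 137, 136 and 122 FPKM.

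**Figure D2:**
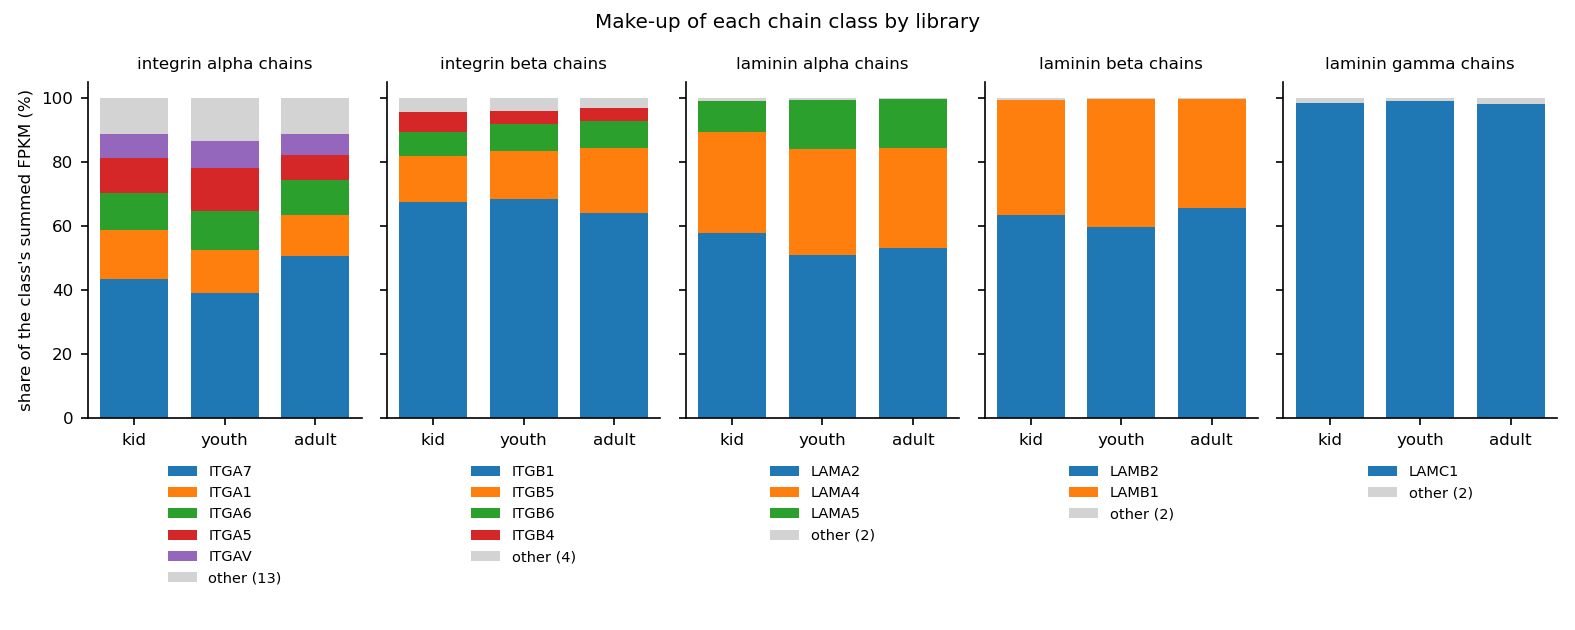
Share of the summed FPKM (%, from 0) that each chain held within its class in the kid, youth and adult libraries, with the remaining chains of a class pooled in grey. ITGA7 held its largest share of the alpha chains in adult (50.6%), and LAMA5 held a larger share of the laminin alpha chains in youth and adult (15.2% and 15.3%) than in kid (9.74%).

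The laminin chains in these libraries were those of muscle and vessel basement membranes. LAMA2 (gene 102187050), the alpha chain of the fibre's own laminin, stood at 30.5 FPKM in kid, with 25.8 in youth and 24.4 in adult, from 4679, 3726 and 4347 reads. It was highest in kid, 1.18-fold lower in youth (1.13 to 1.24) and 1.25-fold lower in adult (1.20 to 1.30). LAMA4, the alpha chain of capillary and other endothelial membranes, was at 16.7, 16.7 and 14.4 FPKM. Kid and youth were within counting error, and adult was 1.16-fold lower than youth (1.08 to 1.25).

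LAMA5 (gene 102171801) was the laminin chain whose mean was at least 1 FPKM that was lowest in kid. LAMA5, found in vessels, epithelia and at the neuromuscular synapse, stood at 5.15 FPKM in kid, with 7.67 in youth and 7.05 in adult, from 761, 1067 and 1210 reads. It was 1.49-fold higher in youth than in kid (1.35 to 1.63) and 1.37-fold higher in adult than in kid (1.25 to 1.50). LAMA2 stood 5.92-fold above LAMA5 in kid (5.48 to 6.40), 3.36-fold in youth (3.14 to 3.60) and 3.46-fold in adult (3.24 to 3.69). LAMA4 likewise stood 3.24-fold above LAMA5 in kid, 2.17-fold in youth and 2.04-fold in adult.

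The beta chains were led by LAMB2 (gene 102183372), which takes the place of beta 1 at synapses, at 58.7 FPKM in kid, with 45.7 in youth and 43.3 in adult. LAMB1 (gene 102176661), the other common beta chain, stood at 33.0, 30.4 and 22.4 FPKM. Both were highest in kid, but the step at which they differed most was not the same. LAMB2 was 1.29-fold lower in youth than in kid (1.23 to 1.34) and 1.05-fold lower in adult than youth (1.01 to 1.10). LAMB1 was 1.09-fold lower in youth than in kid (1.03 to 1.15) and 1.36-fold lower in adult than youth (1.28 to 1.44). Their ratio within a library, LAMB2 over LAMB1, was 1.78 in kid (1.70 to 1.86), 1.50 in youth (1.43 to 1.58) and 1.93 in adult (1.84 to 2.03). It was lowest in youth, whose interval touches neither of the others. Those of kid and adult overlap slightly, which does not show that these ratios are equal.

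LAMC1 (gene 102170256), the gamma chain of most laminins, stood at 52.3 FPKM in kid, with 44.7 in youth and 44.1 in adult. It was 1.17-fold lower in youth than in kid (1.12 to 1.21), and youth and adult were within counting error (0.984, 0.947 to 1.02). It held 98.4%, 99.0% and 98.1% of the FPKM of the 3 gamma chains. The level of LAMC1 was close to that of LAMB2, from which it was not apart by the interval in youth or adult, and it stood 1.71-fold to 1.81-fold above LAMA2 in the 3 libraries. The beta chains together summed to 92.5, 76.5 and 66.1 FPKM, the gamma chains to 53.1, 45.2 and 44.9 and the alpha chains to 52.9, 50.5 and 46.0.

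The other 6 laminin chains were under 1 FPKM in every library. LAMA3 and LAMB3 are chains of skin and other epithelia. LAMA3 had 48, 37 and 20 reads and LAMB3 36, 18 and 21, and they were 2.79-fold (1.62 to 4.96) and 1.99-fold (1.13 to 3.59) lower in adult than in kid by FPKM. LAMC3, a chain known from nerve, skin and retina, had 34, 14 and 9 reads, 4.39-fold lower in adult than in kid (2.06 to 10.4). LAMA1, a chain of embryonic membranes, and LAMB4 were at 0 in kid and at 1 read each in youth and adult, the fewest reads the values allow. At the lengths these reads imply, a count of 0 in kid allows up to 0.0391 FPKM of LAMA1 and 0.0365 of LAMB4.

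Across many genes, a chain was set against all 12121 genes whose mean was at least 1 FPKM over the libraries, and 24 of these were chains (18 integrin, 6 laminin). The 14 chains below that mean were left out of these counts. In youth against kid 0 of 24 chains reached a difference of 1 on the log2(FPKM + 1) scale, which is 2-fold, where 1.05% of all genes did (0.421% higher, 0.627% lower). In adult against youth 0 of 24 did, against 2.08% of all genes (1.01% higher, 1.07% lower), and in adult against kid 0 of 24, against 1.76% (0.536% higher, 1.22% lower). No chain of the 24 was thus 2-fold apart between any pair of libraries on this scale. Their differences ran from -0.56 to 0.49, from -0.69 to 0.40 and from -0.67 to 0.39 in the 3 comparisons.

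Smaller differences were read from the interval of the ratio, and most of them were towards lower values in the older library. In youth against kid the interval left out 1 for 3 higher chains (12121 genes: 11.6%) and 7 lower ones (26.9%), or 10 of 24 where 38.5% of all genes did so. The higher ones were ITGA9, ITGB6 and LAMA5, and the lower ones ITGA1, ITGA7, ITGB4, LAMA2, LAMB1, LAMB2 and LAMC1. In adult against youth there were 3 higher (ITGA7, ITGA8 and ITGB5, with 22.3% of all genes higher) and 14 lower (27.0% of all genes lower), or 17 of 24 against 49.3%. In adult against kid 2 were higher (ITGB5 and LAMA5, with 16.7% of all genes higher) and 15 lower (34.6% of all genes lower), or 17 of 24 against 51.2%. The interval narrows with the number of reads, so these shares also depend on how abundant a gene is.

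The median difference of the 24 chains was -0.10 in youth against kid, -0.12 in adult against youth and -0.24 in adult against kid, where all tested genes had -0.08, -0.02 and -0.10. By family, the integrins had -0.08, -0.13 and -0.23 and the laminins -0.17, -0.09 and -0.28. The adult library held the lowest value for 18 of the 24 chains (75%) and for 45.2% of all tested genes. The kid library held the highest value for 15 chains (62.5%) and for 44.4% of all tested genes. When the libraries were rescaled so that the median gene had no difference, adult was lowest for 16 chains (all genes 38.0%) and kid was highest for 10 (30.1%), with youth also highest for 10. The sign of youth against kid depended on that scale: 6 chains were higher and 18 lower as deposited, and 11 higher and 13 lower after rescaling.

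**Figure D3:**
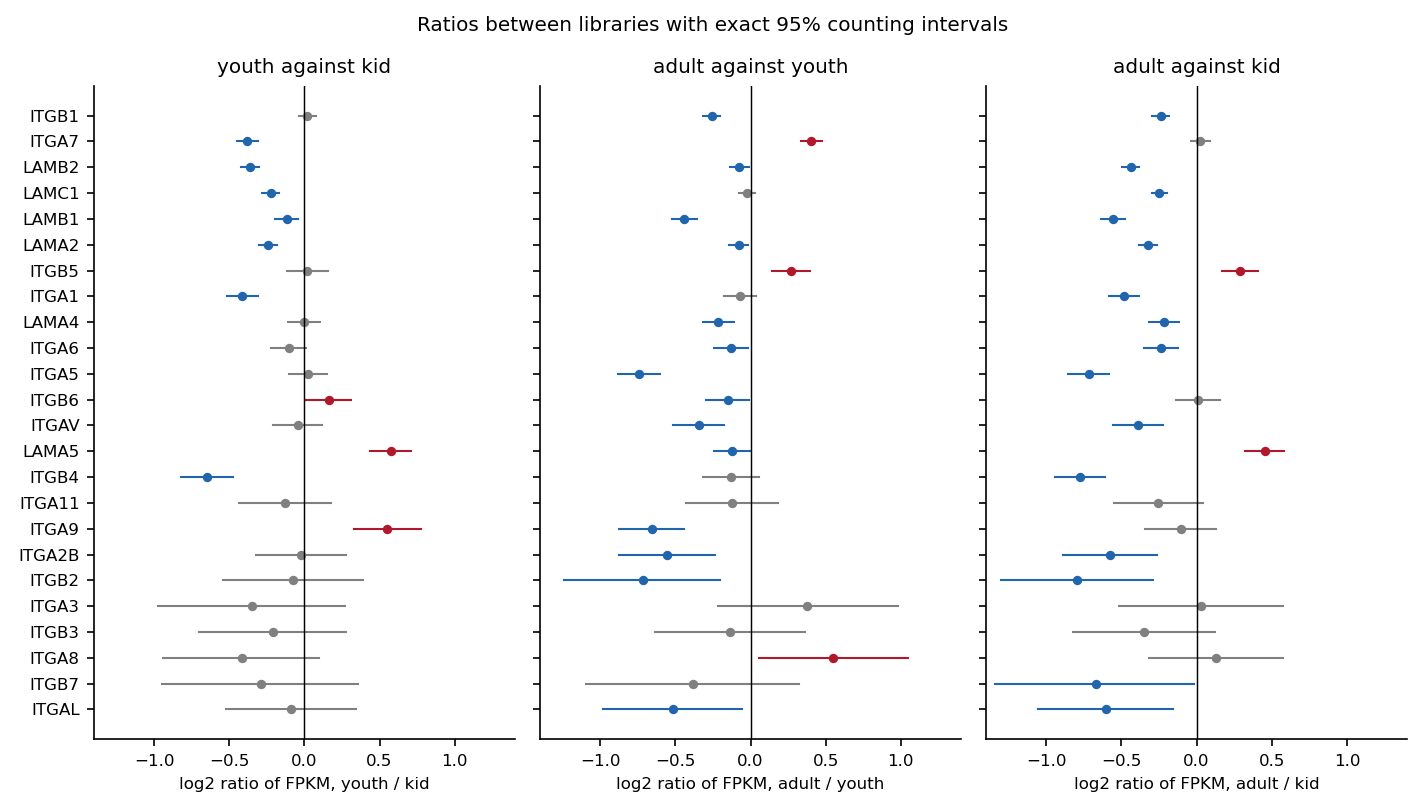
Log2 ratio of FPKM for the 24 chains whose mean was at least 1 FPKM in the 3 comparisons, with exact 95% counting intervals as bars, ordered by mean level, red where the interval lies above 0, blue where below and grey where it holds 0. Blue points number 7, 14 and 15 in the 3 panels, and ITGB5 is red in both comparisons with adult.

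**Figure D4:**
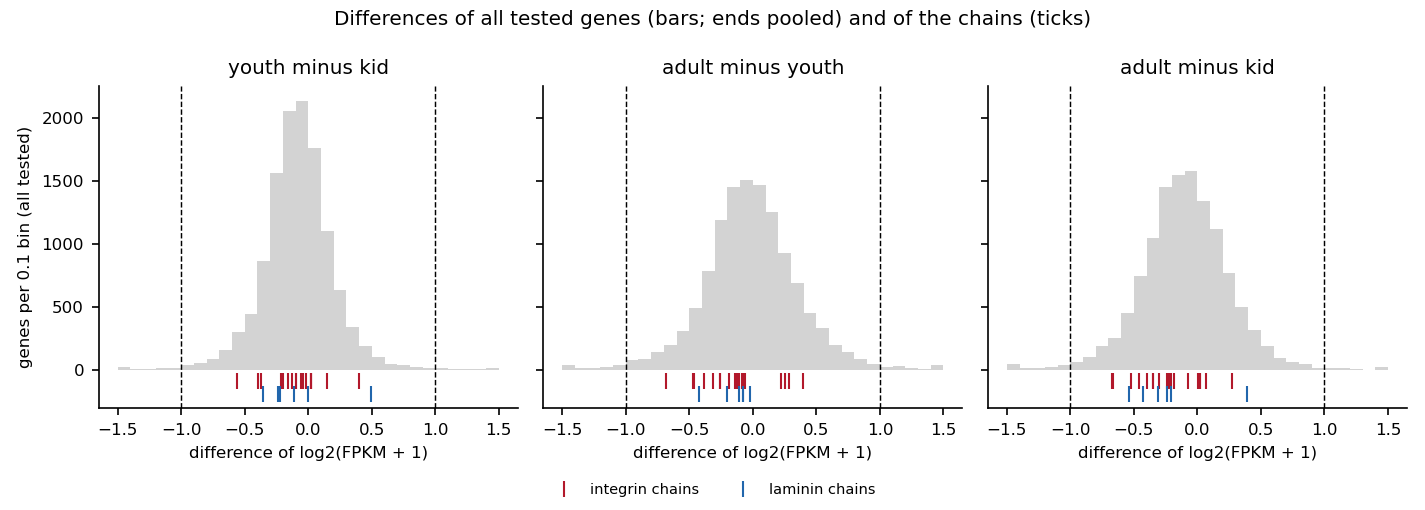
Difference of log2(FPKM + 1) for all 12121 tested genes (grey bars, genes per bin of 0.1, values beyond the axis pooled in the end bins), with the 18 integrin chains (red ticks) and 6 laminin chains (blue ticks) below and dashed lines at a difference of 1 in either direction. No tick reaches a dashed line, and most chains lie within the body of the genes. In youth against kid ITGB4 lies in the lowest 5% of the genes, and LAMA5 and ITGA9 in the highest 5%. ITGA5 lies in the lowest 5% in adult against youth, and ITGB4 and ITGA5 do so in adult against kid.

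The leukocyte integrins were far below the muscle receptor in each library. ITGB2 (gene 100861185), the beta chain found on white blood cells, stood at 2.52 FPKM in kid, with 2.39 in youth and 1.46 in adult, from 85, 76 and 57 reads. ITGAL, its partner on lymphocytes, was at 1.25, 1.18 and 0.822 FPKM, from 98, 87 and 75 reads. ITGB1 stood above ITGB2 36.6-fold in kid (29.5 to 45.9), 39.1-fold in youth (31.1 to 49.7) and 53.7-fold in adult (41.4 to 71.0). ITGB2 in turn stood above ITGAL 2.02-fold in kid (1.49 to 2.73), 2.03-fold in youth (1.47 to 2.80) and 1.77-fold in adult (1.23 to 2.53). These intervals overlap and are wide, so a difference in this ratio between the libraries could be missed.

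The adult library was the low one for these chains. ITGB2 was 1.64-fold lower in adult than youth (1.15 to 2.36) and ITGAL 1.43-fold lower (1.04 to 1.97). ITGAM, the partner on neutrophils and macrophages, was at 0.674, 0.596 and 0.242 FPKM, 2.47-fold lower in adult than youth (1.10 to 5.90). ITGAX, a chain of dendritic cells and macrophages, was at 0.284, 0.438 and 0.233 FPKM, 1.88-fold lower in adult than youth (1.05 to 3.43). Kid and youth were within counting error for all 4. ITGAX was also within it in adult against kid (1.22-fold lower, 0.639 to 2.33).

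Not every chain of the leukocyte list followed. ITGAE, a chain of lymphocytes that sit in epithelium, was at 0.512, 0.815 and 1.03 FPKM, from 30, 45 and 70 reads, and was 2.01-fold higher in adult than in kid (1.29 to 3.19). ITGAD, a further partner of beta 2, was at 0.735, 0.925 and 0.853 FPKM with 1 inside all 3 intervals. ITGB7, the partner of ITGAE and ITGA4, was at 1.33, 1.09 and 0.837 FPKM, 1.59-fold lower in adult than in kid (1.01 to 2.54). ITGAE and its beta chain therefore stood in opposite orders in kid and adult.

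Summed, ITGAL, ITGAM, ITGAX and ITGB2 had 4.73 FPKM in kid, with 4.60 in youth and 2.75 in adult, from 229, 215 and 163 reads. By the summed reads they were within counting error in youth against kid (0.996, 0.823 to 1.21) and 1.63-fold lower in adult than youth (1.32 to 2.01). With ITGAD, ITGAE and ITGB7 added, the 7 chains of the leukocyte list summed to 7.31, 7.43 and 5.47 FPKM, 1.32-fold lower by reads in adult than youth (1.13 to 1.54) and 1.25-fold lower than in kid (1.07 to 1.46). ITGA7 and ITGB1 together had 154, 141 and 141 FPKM, from 9162, 7863 and 9775 reads. By reads this pair was 1.10-fold lower in youth than in kid (1.07 to 1.13) and within counting error in adult against youth (1.01, 0.979 to 1.04).

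General leukocyte markers had the same low library. Their sum of 121, 129 and 69.4 FPKM was 1.85-fold lower in adult than youth, where the 4 leukocyte integrins were 1.67-fold lower and all 7 chains of the list 1.36-fold lower by summed FPKM. In adult against youth 15 of 15 markers whose mean was at least 1 FPKM were lower by the interval and 0 higher, where 27.0% of all genes were lower. In adult against kid 12 of the 15 were lower and 0 higher, where 34.6% of all genes were lower. The most abundant of them, LAPTM5, a lysosomal protein of blood cells, stood at 20.8, 19.4 and 11.5 FPKM, and C1QA, the macrophage complement chain, at 12.9, 16.3 and 6.64. The part of leukocyte number in the integrin levels was not tested.

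**Figure D5:**
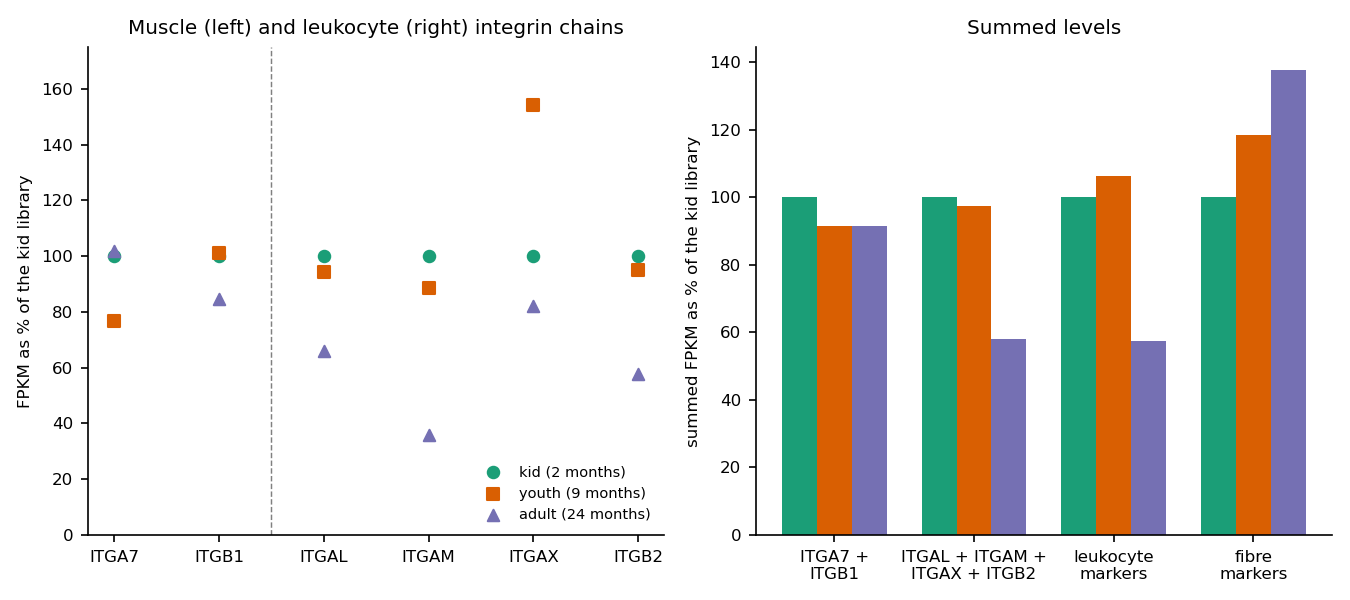
Left, FPKM of the muscle chains ITGA7 and ITGB1 and of the leukocyte chains ITGAL, ITGAM, ITGAX and ITGB2 as a percentage of the kid library (1 symbol per library, axis from 0). Right, summed FPKM as a percentage of kid for both sets, for 19 leukocyte markers and for 5 fibre markers. The leukocyte chains and markers are lowest in adult, while the muscle pair is about level between youth and adult and the fibre markers are highest in adult.

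Inside the cell, integrins are switched on by talin and kindlin and tied to actin by vinculin, alpha-actinin, filamin and the complex of ILK, PINCH and parvin. Of 25 such genes, 22 had a mean of 1 FPKM or more and 0 reached 2-fold in any comparison. Few of all genes did: 1.05% in youth against kid, 2.08% in adult against youth and 1.76% in adult against kid. The interval put 6 higher and 6 lower in youth against kid (of all genes 11.6% and 26.9%), 6 and 9 in adult against youth (22.3% and 27.0%), and 7 and 9 in adult against kid (16.7% and 34.6%). Their medians were 0.00, -0.08 and -0.10, beside -0.08, -0.02 and -0.10 for all genes. In youth against kid 11 were above and 11 below 0 as deposited, and 16 above and 6 below after rescaling to a median gene without difference.

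The most abundant was ACTN2, the alpha-actinin of the Z-disc, at 1239 FPKM in kid, with 1003 in youth and 1287 in adult. FLNC, the muscle filamin, stood at 748, 1031 and 977 FPKM and was 1.38-fold higher in youth than in kid (1.37 to 1.39). LIMS1, one of the PINCH adaptors, was at 37.2, 24.3 and 25.3 FPKM, 1.53-fold lower in youth than in kid (1.43 to 1.64). These 3 genes had the largest differences of the list in that comparison.

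Other genes led the list in adult against youth. PARVB, a parvin of striated muscle, was at 48.4, 46.9 and 68.4 FPKM, 1.46-fold higher in adult than youth (1.38 to 1.54). BCAR1, a docking protein of focal adhesions, was at 6.29, 6.23 and 9.85 FPKM, 1.58-fold higher (1.32 to 1.90). FERMT1, the kindlin of epithelia, was low, at 1.10, 0.800 and 1.56 FPKM, and 1.95-fold higher (1.35 to 2.87). The partner of PARVB in the same complex, ILK, stood at 47.2, 45.3 and 42.9 FPKM and was within counting error in adult against youth.

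The molecules that laminins meet in the basement membrane and at the fibre surface were described as a list of 25 genes, 21 of them whose mean was at least 1 FPKM. In youth against kid the interval put 11 higher and 5 lower (of all genes 11.6% and 26.9%), whereas of the 6 laminin chains 1 was higher and 4 lower. In adult against youth 2 were higher and 16 lower (22.3% and 27.0%), and in adult against kid 1 was higher and 14 lower (16.7% and 34.6%). The medians were 0.10, -0.26 and -0.16, and 0 of the 21 reached 2-fold in any comparison, where 1.05%, 2.08% and 1.76% of all genes did. In adult against kid, 2 were above and 19 below 0 as deposited, and 9 above and 12 below after rescaling to a median gene without difference.

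Youth was the high library for many of these genes. SPARC, a collagen-binding protein and the most abundant of the list, stood at 282 FPKM in kid, with 411 in youth and 260 in adult, 1.46-fold higher in youth than in kid (1.42 to 1.50) and 1.58-fold lower in adult than youth (1.54 to 1.62). COL6A3, a chain of the microfibrils just outside the membrane, was at 37.2, 49.0 and 35.4 FPKM. COL15A1, a collagen of muscle and capillary membranes, was at 41.5, 52.5 and 29.1 FPKM, 1.80-fold lower in adult than youth (1.71 to 1.89). NID1, the link between laminin and collagen IV, was at 42.6, 45.7 and 30.5 FPKM, 1.50-fold lower in adult than youth (1.43 to 1.57). The 8 fibroblast and tendon markers also had their highest sum in youth, but not as 1 group. Of the 7 whose mean was at least 1 FPKM, 3 were higher and 3 lower in youth than in kid by the interval. Of all genes, 11.6% were higher and 26.9% lower. COL1A1 and COL3A1, the main fibrillar collagen chains, were highest in youth, while TNMD and COMP, tendon and cartilage genes, were highest in adult at 5.15 and 7.96 FPKM. Their part in these levels was not tested.

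Others were highest in kid. COL18A1, a vessel membrane collagen, was at 8.07, 5.48 and 5.55 FPKM, 1.47-fold lower in youth than in kid (1.30 to 1.67). DMD, which joins the laminin receptor dystroglycan to actin, was at 83.1, 64.0 and 55.6 FPKM, 1.49-fold lower in adult than in kid (1.44 to 1.55). COL4A5, a minor collagen IV chain, was at 1.01, 0.933 and 0.416 FPKM, 2.44-fold lower in adult than in kid (1.73 to 3.49). The dystroglycan gene itself, DAG1, differed little, at 57.0, 59.9 and 60.1 FPKM, beside LAMA2 at 30.5, 25.8 and 24.4.

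Of the 7 entries that the wording of the rule took in but that are no chains, ITGB1BP2 stood out for its level. It encodes melusin, a muscle protein that binds the tail of integrin beta 1, and was at 40.2 FPKM in kid, with 48.9 in youth and 41.0 in adult. It was 1.22-fold higher in youth than in kid (1.11 to 1.34) and 1.19-fold lower in adult than youth (1.09 to 1.30), with its highest value in the library where ITGA7 was lowest. ITGBL1, a secreted protein with EGF-like repeats, was also highest in youth, at 7.14, 9.82 and 7.37 FPKM. ITGB3BP, a centromere protein also described as a binder of beta 3, was at 7.05, 4.64 and 5.26 FPKM, 1.52-fold lower in youth than in kid (1.13 to 2.06). ITGB1BP1, ITFG1, ITFG2 and FAM234A lay between 7.87 and 17.9 FPKM. ITFG1 was 1.17-fold lower in adult than youth (1.06 to 1.30), and FAM234A, ITFG2 and ITGB1BP1 were within counting error in adult against youth and in youth against kid.

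Within a library, the order of the integrin chains was firm only at the top. ITGB1 and ITGA7 were at ranks 1 and 2 in all 3 libraries, each apart from the next chain by the interval. The rank below them was held by ITGA1 in kid and by ITGB5 in youth and adult. Below ITGB4, which had rank 9 in each library, most neighbours could not be told apart: of 16 pairs of neighbours there, 2 were apart in kid, 2 in youth and 0 in adult. Over the whole order of 26 chains, 9, 8 and 8 of 25 pairs were apart. Among the laminins LAMA4 came next to the top 4 chains and LAMA5 after it in every library, each apart from its neighbours. LAMB1 stood above LAMA2 in kid and youth and below it in adult.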

How the data were processed

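The authors deposited FPKM in 1 table, a column for each stage. The tools FastQC, TopHat2 and DESeq are named without versions, per the submitters' processing notes; the build, the annotation and the counting of reads shared by similar genes are not stated there or in the file header. Since FPKM is scaled to the mapped total, abundant muscle genes can shift other values.

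Whole reads were recovered from the FPKM steps for 16054 of 16054 genes above 0 in 3 libraries (100%, within 5e-05 of a read plus 6e-10). Where reads and length share a factor, the fewest reads are returned and the interval is wider. This may concern ITGAM, ITGA3 and LAMA1, among other genes. With simulated reads of 2500 genes, 93% came back exactly. Intervals for youth against kid built from the simulated reads themselves held the true ratio in 95.72%. Such intervals are exact for those reads by design, so how often intervals from recovered reads hold the true ratio was not tested.

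Differences were taken on log2(FPKM + 1), which understates low genes, for 12121 genes whose mean reached 1 FPKM; 1 or more was called. Python 3.11.15, numpy 2.4.6, pandas 2.3.3, scipy 1.17.1 and matplotlib 3.10.9 were used. Names came from RefSeq (goat assembly ARS1.2; 21743 gene numbers matched). CD163, CLDN5, PF4, GP9, GP1BB, MBP, SCX and FABP4 were not analysed here. Members, lists and thresholds were chosen with earlier results of these data known. The chains are given, except 1 that is not reported here; from each pathway list the rule names the most abundant gene and up to 3 with the largest difference per comparison, and LAPTM5, C1QA, ILK and DAG1 were added as background. Alternatives covered the pseudocount, the filter and the scaling.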

Additional observations from a re-analysis of the deposited data

How the results depend on the processing

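No paired analysis was possible because each stage had 1 library. No value whose counting interval left out a difference of 0 changed sign under the 7 alternatives, and 0 chains reached a difference of 1 on the log2 scale under any of them in the 3 comparisons. For single chains and sums, only the rescalings could have changed a sign. The filters do not enter those values, and another pseudocount keeps their sign by construction. Chains under 1 FPKM cannot reach a difference of 1 with a pseudocount of 1, and a smaller pseudocount without the filter was not run. The number of all genes past 2-fold (127, 252 and 213 in youth against kid, adult against youth and adult against kid) was 300, 555 and 451 with a pseudocount of 0.1, 45, 82 and 71 with a pseudocount of 5, and 64, 160 and 122 at a mean of at least 5 FPKM. By construction, a larger pseudocount shrinks differences of low genes and a higher mean leaves fewer genes. As deposited, these calls split into 51 higher and 76 lower in youth against kid and 65 and 148 in adult against kid. With quantile normalization the splits were 62 and 56, and 90 and 100, and with a median difference of 0 the split in adult against kid was 85 and 112. With libraries scaled to their mean summed FPKM, the split in adult against youth went from 122 and 130 to 108 and 167. The median difference of all genes as deposited was -0.08, -0.02 and -0.10. In youth against kid, the median of the chains (-0.10) was 0.0054 with quantile normalization. There the summed leukocyte integrins (-0.03) were 0.13, and 0.04 with a median difference of 0. The summed leukocyte integrins, at -0.58 in adult against youth and -0.61 in adult against kid on log2(sum + 1), were at -0.31 and -0.33 with a pseudocount of 5. The summed muscle integrins, at -0.13, -0.00 and -0.13, were at -0.063 in adult against youth and -0.17 in adult against kid with libraries scaled to their mean summed FPKM. With a median difference of 0 they were at -0.035 in youth against kid and -0.013 in adult against kid; the cause was not tested. Of 360 values of single chains under the alternatives of pseudocount and scaling, 328 lay within the counting interval and 342 had the same sign. Those under another pseudocount could not differ in sign. Depth limits the chains under 1 FPKM, which rest on few reads.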

Other observations

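ITGB6 stood at 10.3, 11.5 and 10.3 FPKM in kid, youth and adult while markers of epithelium, the tissue it is best known from, were low in the same libraries. Of 9 such genes, chosen after the value of ITGB6 was seen, 8 had an entry. They summed to 3.79, 1.90 and 1.64 FPKM, and 7 of the 8 were under 1 FPKM in every library. KRT18, a keratin of simple epithelia, was at 3.11, 1.44 and 1.17 FPKM, the adhesion protein CDH1 at 0.620, 0.269 and 0.376, and KRT8 and KRT14 were listed at 0 throughout. The cell source of the ITGB6 reads was not tested.

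Outside the wording of the rule, 2 entries described as laminin-like were found. The entry described as laminin subunit beta-1-like (gene 102179246) had 27, 19 and 17 reads, and the one described as alpha-3-like (gene 102190568) had 11, 9 and 10, with 1 inside all intervals. Against LAMB1, at 2906, 2524 and 2293 reads, the beta-1-like entry is small. LAMA3 itself had 48, 37 and 20 reads; how reads shared between it and the alpha-3-like entry were counted is not stated, so its value is uncertain.

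Ratios between chains differed in how far they ranged over the 3 libraries. Among chains that can share a receptor or a laminin, ITGB1 over ITGA7 ranged from 1.25 to 1.98 and LAMC1 over LAMA2 from 1.71 to 1.81. ITGB2 over ITGAL ranged from 1.77 to 2.03, but it rests on few reads. Its intervals reached down to 1.23 in adult and up to 2.80 in youth. Among chains that replace each other, LAMB2 over LAMB1 ranged from 1.50 to 1.93 and LAMA2 over LAMA5 from 3.36 to 5.92. A ratio taken within a library is not altered by a constant factor per library.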
